A study of Mus musculus with 50 samples.

Results

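Whole lung RNA of mice that carried IL-13 and had no working Stat6 allele (IL-13+ Stat6-/-) was compared with whole lung RNA of mice that carried IL-13 and kept 1 working Stat6 allele (IL-13+ Stat6+/-). The members were 10 of the 50 arrays of the series, chosen by the titles in the labels, 5 for Stat6-/- lungs (replicates 1, 2, 4, 5 and 6) and 5 for Stat6+/- lungs (replicates 1, 3, 4, 5 and 6). The RNA was total RNA that had not been amplified, hybridised as complementary DNA on spotted arrays with a pooled reference in the other channel. In each group 2 arrays were read against reference pool 3 and 3 against reference pool 4. Another whole lung group, IL-13+ Stat6-/- with the mark Epi+ (5 arrays), entered the fit without being compared. It helped to estimate the spread between arrays and the effect of the reference pool, and it limited which probes were tested. By its title the series asked which expression changes come from direct action of IL-13 on airway epithelial cells. All 3 groups carried IL-13, and no array of these genotypes without IL-13 was used, so a genotype difference present without IL-13 cannot be told apart from a difference in the response to it. The labels give no strain, age, sex or promoter. They do not say whether each array stands for its own animal, so the p-values measure spread among samples that may be partly technical. In IL-13 mouse lines of this kind the cytokine is usually made under a promoter of airway club cells, and Epi+ usually stands for Stat6 restored in airway epithelium. Bulk lung RNA cannot tell fewer cells of a type apart from less RNA per cell.

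IL-13 is a cytokine of type 2 immunity, the response raised in allergy and worm infection. It binds a receptor of the Il4ra and Il13ra1 chains, whose kinases phosphorylate Stat6, and Stat6 then enters the nucleus and binds DNA. In the lung this pathway is known for turning airway epithelium toward mucus-making goblet cells, for recruiting eosinophils and macrophages through chemokines, and for moving macrophages to the state called alternative activation.

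Stat6 is known to bind DNA at TTC and GAA with 4 bases of any kind between them. These letters, which read the same on both strands, were searched in windows of 250 bases before to 50 bases after the gene start from the RefSeq table of build GRCm38.p6. Of the 15 genes with the largest fall named below, 13 had a window and 1 held these letters, against 8.01% of all 27025 genes with a window. That gene was Retnla, which encodes a secreted protein of alternatively activated macrophages and airway epithelium, and its window is shown as the 1 match among the genes that fell most (chr16:48842359-48842658, plus strand, match in capitals, its first base at position -145 from the start).
Retnla: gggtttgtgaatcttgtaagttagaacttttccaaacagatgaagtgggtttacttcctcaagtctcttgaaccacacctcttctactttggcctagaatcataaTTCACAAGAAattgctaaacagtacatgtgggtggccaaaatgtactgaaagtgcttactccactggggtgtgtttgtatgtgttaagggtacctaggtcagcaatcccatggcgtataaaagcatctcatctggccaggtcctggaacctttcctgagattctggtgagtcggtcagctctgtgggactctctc
Of the 15 genes with the largest rise, 11 had a window and 1 held the letters, Sox11. The shorter spacing of 3 bases, used by other Stat proteins, was in the windows of Atp2a1 and Gzmb, against 9.55% of all genes with a window. A match describes the letters of the window and does not show a site.

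Values below are log2 ratios to the reference pool after each array was centred on its own median, so 0 is the typical spot of that array and levels of different genes cannot be compared. The ratio was taken as sample over reference, which the labels do not state and which is likely because Il13 was at 4.02 to 6.05 on all 10 arrays. Each difference is Stat6-/- minus Stat6+/-, with the standard error of a limma fit that had the reference pool as a block, and a probe was called at a Benjamini-Hochberg adjusted p under 0.05 over all 16096 probes tested. Before centring, the array medians averaged -0.15 in Stat6-/- lungs and -0.52 in Stat6+/- lungs, a shift of 0.37 to which all differences are relative. The centred values spread less on Stat6-/- arrays, with a median absolute deviation of 0.336 to 0.617, than on Stat6+/- arrays, with 0.477 to 0.973. Of the tested probes, 779 were called (4.84%), 520 lower (3.23%) and 259 higher (1.61%) in Stat6-/- lungs, and 3081 had an unadjusted p under 0.05. Within reference pool 3 alone, 2 against 2 arrays, 21 probes were called, and within pool 4 alone, 3 against 3 arrays, 82. Without centring the calls were 284, of which 102 were lower and 182 higher. The median difference over all tested probes was 0.04. The groups did not overlap for 498 of the 779 called probes, and for 5.55% of all tested probes.

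Among the Stat6-/- arrays, replicates 1 and 2 stood apart by sex-linked genes. Uty, on the Y chromosome, read -3.66 and -4.35 on replicates 1 and 2, and -0.61 to 0.38 on the other Stat6-/- arrays, against -0.59 to 0.28 on Stat6+/- arrays. Eif2s3y, also Y-linked, read -3.06 and -3.16 on those arrays, and -0.51 to 0.00 on the other Stat6-/- arrays, against -0.71 to 0.01 on Stat6+/- arrays. Xist, the RNA of the inactive X chromosome, read 7.35 on Stat6-/- replicate 1 and had no value on replicate 2. Its other values were 0.89 and -3.15 in Stat6-/- lungs, against -1.92, 0.91 and 2.07 in Stat6+/- lungs. The Y-linked Kdm5d read -2.0 and -1.41 on replicates 1 and 2, and -0.68 to -0.17 on the other Stat6-/- arrays, against -1.93 to -0.49 on Stat6+/- arrays, so it did not set them apart from the Stat6+/- arrays. A second, thinner Eif2s3y probe was low on Stat6-/- replicate 1, at -3.63, and on replicate 5, at -2.43. With replicates 1 and 2 left out, 289 probes were called, 223 lower and 66 higher. Counts without them stand beside the gene groups below as the calls over 3 against 5 arrays, followed by the calls of the list with the values as deposited, before centring. List counts from the centred values of all arrays are to be read against 3.23% of all tested probes lower and 1.61% higher. Those over 3 against 5 arrays go with 223 lower and 66 higher calls among 14956 tested probes. Those as deposited go with 102 lower and 182 higher calls among 16096.

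The genes the design concerns came first. Il13 read 4.96, 5.79, 4.65, 5.32 and 5.19 in Stat6-/- lungs, against 5.98, 5.45, 5.20, 6.05 and 4.02 in Stat6+/- lungs. The groups overlapped, and the difference of -0.16 ± 0.36 did not pass the test (adjusted p = 0.852). Stat6 read -0.92, -0.42, -0.58, -0.64 and -0.82 in Stat6-/- lungs, against -0.82, -1.14, -1.37, -0.76 and -0.22 in Stat6+/- lungs, again with overlap, and its difference was 0.19 ± 0.28 (adjusted p = 0.766). The stretch of Stat6 under the probe was not known here, so its level does not check the genotype labels. These 4 markers of lung epithelium, named to check the labelled tissue, were not called, while other genes of the same cell types were and are given below. Sftpc, the surfactant protein of alveolar type 2 cells, differed by -0.44 ± 0.26, Scgb1a1, the main secreted protein of club cells, by 0.01 ± 0.33, Ager of alveolar type 1 cells by 0.67 ± 0.21, and Foxj1, the regulator of ciliated cells, by -0.10 ± 0.27.

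Some genes of mucous cells were lower in Stat6-/- lungs. Of 29 mucous cell and mucus genes measured, 11 fell and 0 rose, where 3.23% of all tested probes fell, and their median difference was -1.47. Over 3 against 5 arrays 9 of 28 fell, and 9 of 29 as deposited. Clca1, a secreted protein and classic marker of IL-13 treated goblet cells, read -0.16, -1.14, -0.46, -1.29 and -0.69 in Stat6-/- lungs, against 6.03, 6.21, 8.59, 7.21 and 6.12 in Stat6+/- lungs. Every Stat6-/- value lay below 0 and every Stat6+/- value above 6, and the difference of -7.58 ± 0.61, adjusted p = 1.53e-05 is 192-fold. Slc26a4 (pendrin, an anion exchanger of airway epithelium) read 1.52, -0.34, -0.36, -1.30 and 1.03 in Stat6-/- lungs, against 5.06, 9.03, 8.92, 5.89 and 5.77 in Stat6+/- lungs, a fall of 113-fold (-6.82 ± 0.83, adjusted p = 0.000478). Itln1, a lectin of goblet cells that binds microbial sugars, read 2.01, -0.61, -0.31, -0.12 and 0.24 in Stat6-/- lungs, against 4.65, 5.56, 3.56, 5.15 and 6.13 in Stat6+/- lungs. Its groups did not overlap (-4.77 ± 0.79, adjusted p = 0.00384), although Stat6-/- replicate 1 stood above the other 4. Agr2, a disulphide isomerase needed for mucin folding, read 0.46, -1.19, -0.27, 0.22 and -0.27 in Stat6-/- lungs, against 4.80, 5.06, 3.49, 5.23 and 3.74 in Stat6+/- lungs (-4.67 ± 0.25, adjusted p = 9.89e-07).

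The gel-forming mucins fell with them. Muc5ac, the mucin that goblet cells add in allergy, read -0.98, 0.15, -0.37, -1.24 and -0.33 in Stat6-/- lungs, against 3.88, 3.40, 3.26, 4.11 and 1.98 in Stat6+/- lungs. The lowest Stat6+/- value was that of replicate 6 and stood well above the highest Stat6-/- value, for a difference of -3.87 ± 0.49, adjusted p = 0.000559. Muc5b, the mucin that healthy airways also make, read -0.34, 0.26, 0.38, 0.61 and -0.08 in Stat6-/- lungs, against 3.25, 3.15, 3.03, 2.76 and 2.90 in Stat6+/- lungs, a smaller fall of 7.23-fold (-2.85 ± 0.33, adjusted p = 0.000318). Tff2, a trefoil peptide secreted with mucins, read 0.09, -0.84, -1.11, 0.45 and -0.18 in Stat6-/- lungs, against 4.70, 3.33, 2.87, 3.93 and 2.71 in Stat6+/- lungs (-3.82 ± 0.26, adjusted p = 3.32e-06). Pigr, which carries antibodies of class A across epithelium, read 0.38, 0.96, 0.52, 1.02 and 0.68 in Stat6-/- lungs, against 4.02, 4.59, 4.43, 4.31 and 4.83 in Stat6+/- lungs (-3.72 ± 0.21, adjusted p = 9.89e-07), with the Stat6+/- arrays within 1 log2 unit of each other. The membrane mucin Muc4 fell by 1.78 ± 0.21 and the goblet cell protein Retnlb by 2.13 ± 0.44. Retnlb overlapped between the groups, through Stat6+/- replicate 4 at -0.43.

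**Figure D1:**
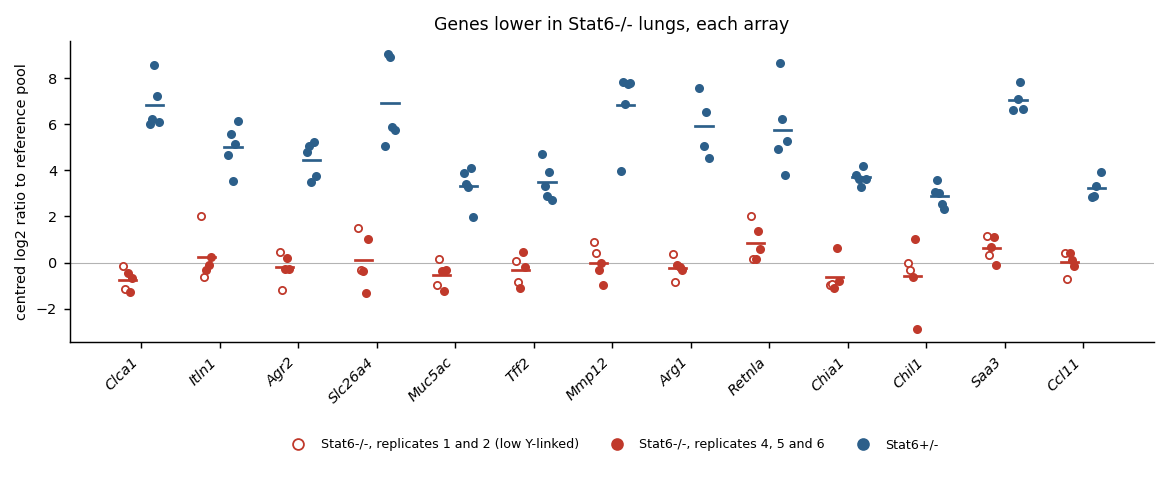
Centred log2 ratio to the reference pool (vertical axis) of 13 genes on each array, with Stat6-/- arrays in red at the left and Stat6+/- arrays in blue at the right of each gene, and a line at each group mean. Open red points are Stat6-/- replicates 1 and 2, which read low for Uty and Eif2s3y. For every gene shown the 2 groups are apart, for example Clca1 at -1.29 to -0.16 in Stat6-/- lungs, against 6.03 to 8.59 in Stat6+/- lungs.

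Genes of alternative macrophage activation, the state that IL-4 and IL-13 raise, were also among those that fell. Of 25 measured members, 15 fell (60%, against 3.23% of all probes) and 0 rose, with a median difference of -1.86. Over 3 against 5 arrays 10 fell, and as deposited 6. Arg1, the arginase that defines this state in mice, read 0.38, -0.84, -0.11, -0.17 and -0.33 in Stat6-/- lungs, against 7.59, 5.07, 6.52 and 4.55 in Stat6+/- lungs, with no value for Stat6+/- replicate 3. All Stat6-/- values lay within 1 log2 unit of 0, and the difference was -6.28 ± 0.77, adjusted p = 0.000988. Retnla, whose window is printed above, read 2.03, 0.15, 0.14, 1.35 and 0.57 in Stat6-/- lungs, against 4.91, 8.66, 6.21, 3.78 and 5.27 in Stat6+/- lungs, and fell by 30.2-fold (-4.92 ± 0.76, adjusted p = 0.00274). Chia1, the acidic chitinase, read -0.99, -0.93, -1.11, 0.62 and -0.78 in Stat6-/- lungs, against 3.78, 3.62, 3.29, 4.20 and 3.64 in Stat6+/- lungs. The groups were apart, with Stat6-/- replicate 5 above the other Stat6-/- arrays, and the difference was -4.34 ± 0.29, adjusted p = 3.32e-06. Rnase2a, a ribonuclease of the eosinophil-associated family, read -0.42, -1.96, -1.34, -0.21 and 0.18 in Stat6-/- lungs, against 3.60, 3.54, 4.88, 5.86 and 3.55 in Stat6+/- lungs (-5.04 ± 0.73, adjusted p = 0.00166). Its probe may also bind transcripts of close relatives in that family.

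Receptors and regulators of the same list followed. Clec7a (dectin 1, a receptor for fungal glucans) fell by 3.61 ± 0.30, Clec10a (a galactose-type lectin) by 2.30 ± 0.24 and Mrc1 (the mannose receptor) by 1.86 ± 0.32. The transcription factor Egr2 fell by 1.94 ± 0.35. Pdcd1lg2, a ligand of the checkpoint receptor PD-1, fell by 3.89 ± 0.92 and the lipid-sensing nuclear receptor Pparg by 1.77 ± 0.42. Leaving out single arrays ended the call of both, at adjusted p up to 0.125 for Pdcd1lg2 and up to 0.0809 for Pparg.

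General macrophage and dendritic cell genes were called beside them. Of 37 measured members 20 fell (54.1%, against 3.23% of all probes) and 1 rose, with a median difference of -1.45, and the median level over its members was -0.28 to 0.14 across Stat6-/- arrays, against 0.83 to 2.18 across Stat6+/- arrays. Over 3 against 5 arrays 18 fell, and as deposited 7 fell and 0 rose. Itgax (CD11c, an integrin of alveolar macrophages and dendritic cells) read 0.25, 0.21, -0.19, 0.49 and 0.40 in Stat6-/- lungs, against 2.84, 4.30, 2.81, 4.26 and 2.72 in Stat6+/- lungs. Cd68, a lysosomal marker of macrophages, read -0.48, 0.31, -0.08, 0.06 and -0.32 in Stat6-/- lungs, against 2.23, 3.91, 2.43, 3.61 and 2.89 in Stat6+/- lungs. Both sets of values were apart, with differences of -3.16 ± 0.27, adjusted p = 2.64e-05 for Itgax and -3.12 ± 0.32, adjusted p = 0.000122 for Cd68. Gpnmb, a membrane glycoprotein of lipid-laden macrophages, read 0.81, 0.84, 0.46, 1.19 and 0.81 in Stat6-/- lungs, against 4.49, 7.34, 4.57, 5.63 and 5.33 in Stat6+/- lungs. Its Stat6-/- arrays lay within 1 log2 unit of each other, and the difference was -4.65 ± 0.42, adjusted p = 3.83e-05. Chil1, a chitinase-like protein, read -0.03, -0.33, -0.61, 1.02 and -2.87 in Stat6-/- lungs, against 3.07, 3.58, 3.00, 2.55 and 2.33 in Stat6+/- lungs, with Stat6-/- replicate 6 below and replicate 5 above the rest (-3.47 ± 0.55, adjusted p = 0.00297).

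Further macrophage members covered phagocytosis and adhesion. The antibody receptor Fcgr3 fell by 2.30 ± 0.30, the scavenger receptor Marco by 2.28 ± 0.49 and the integrin chain Itgam (CD11b) by 1.82 ± 0.35. The complement chains C1qa, C1qb and C1qc, made by resident macrophages, fell by 1.35 ± 0.23, 1.44 ± 0.29 and 1.45 ± 0.26. Siglecf, a lectin of alveolar macrophages and eosinophils, was the exception and rose by 1.09 ± 0.27 (adjusted p = 0.0416), with overlapping groups. Adgre1, an adhesion receptor of mouse macrophages, read 0.37, -0.28, -0.65, 0.04 and -0.40 in Stat6-/- lungs, against -0.17, 2.44, -0.24 and 1.77 in Stat6+/- lungs, and its difference of -1.14 ± 0.67 did not pass the test. Leaving out single arrays ended the calls of Marco and Siglecf, at adjusted p up to 0.0545 and up to 0.12.

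Proteases and lysosomal enzymes were also called. Of 34 measured lysosomal and matrix-degrading proteases 12 fell and 0 rose, with a median of -0.79, and 11 of 33 fell over 3 against 5 arrays and 9 as deposited. Mmp12, the elastase of macrophages, read 0.88, 0.43, -0.34, -0.01 and -0.96 in Stat6-/- lungs, against 3.99, 7.83, 6.90, 7.75 and 7.77 in Stat6+/- lungs. Stat6+/- replicate 1 stood below the other Stat6+/- arrays and still above every Stat6-/- array, for a difference of -6.85 ± 1.08, adjusted p = 0.00286, or 115-fold. Ctsk (cathepsin K, a collagen-cutting protease) read -0.19, -0.43, -0.92, 0.01 and -0.16 in Stat6-/- lungs, against 3.99, 5.92, 2.95, 5.26 and 4.27 in Stat6+/- lungs (-4.82 ± 0.37, adjusted p = 1.18e-05). The other cathepsins fell less, with differences of -2.61 ± 0.35 for Ctsl, -2.55 ± 0.29 for Ctss, -2.49 ± 0.31 for Ctsd and -2.07 ± 0.31 for Ctsb. Mmp19 fell by 2.94 ± 0.35 and Adam8, a membrane protease of leukocytes, by 2.87 ± 0.27. Of 27 lysosome genes 8 fell and 0 rose (median -0.51), of which the count was 5 over 3 against 5 arrays and 1 as deposited, led by Acp5, the tartrate-resistant phosphatase, at -2.87 ± 0.26. Of 16 protease inhibitors 3 fell and 0 rose, with a median of -0.04. They were Serpina3n at -2.93 ± 0.51, Slpi at -1.57 ± 0.31 and Itih4. Over 3 against 5 arrays 2 of 15 inhibitors fell, and as deposited 2 of 16.

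Chemokines that recruit monocytes and eosinophils were among the genes that fell. Of 25 CC chemokines and receptors 8 fell and 0 rose, with a median of -0.87, and 7 of 25 fell over 3 against 5 arrays and 6 as deposited. Ccl11 (eotaxin 1, which attracts eosinophils) read 0.41, -0.73, 0.40, 0.11 and -0.15 in Stat6-/- lungs, against 2.84, 2.88, 3.34 and 3.93 in Stat6+/- lungs, with no value on Stat6+/- replicate 5 (-3.24 ± 0.32, adjusted p = 0.000156). Ccl2, which attracts monocytes, read 0.22, 0.26, -0.37, -0.66 and 0.10 in Stat6-/- lungs, against 3.68, 4.30, 2.02, 5.11 and 4.66 in Stat6+/- lungs (-4.04 ± 0.46, adjusted p = 0.00028). The groups were apart for both. Ccl6 and Ccl9, chemokines that macrophages make in mice, fell by 3.50 ± 0.23 and 2.85 ± 0.23. Ccl3 fell by 4.30 ± 0.87, Ccl8 by 2.73 ± 0.45 and the receptor Ccr1 by 2.83 ± 0.48, the last with Stat6+/- replicate 1 inside the Stat6-/- range.

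Neutrophil attractants and growth factors formed a smaller group. Of 37 other chemokines and cytokines 6 fell and 2 rose, with a median of -0.39, and 3 fell and 1 rose over 3 against 5 arrays, and 2 fell and 2 rose as deposited. Cxcl1, which attracts neutrophils, read 0.78, 0.18, 0.72, 1.43 and 1.18 in Stat6-/- lungs, against 4.80, 4.81, 4.02 and 3.24 in Stat6+/- lungs, with no value on Stat6+/- replicate 3 (-3.42 ± 0.43, adjusted p = 0.000789). The groups were apart. Cxcl2, its close relative, fell by 2.48 ± 0.60 at -2.17 to 0.98 in Stat6-/- lungs, against 1.49 to 3.11 in Stat6+/- lungs, and lost the call without single arrays, at adjusted p up to 0.0785. Igf1, a growth factor that lung macrophages secrete, fell by 2.57 ± 0.28. Il18, an inflammasome cytokine, rose by 1.18 ± 0.18 with groups apart, at -0.82 to 0.28 in Stat6-/- lungs, against -1.97 to -1.20 in Stat6+/- lungs.

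Acute phase and mucosal defence genes gave 11 falls and 1 rise among 21 measured, with a median of -1.13. Over 3 against 5 arrays 7 fell and 1 rose, and as deposited 4 fell and 1 rose. Saa3, a serum amyloid made by lung epithelium and macrophages, read 1.17, 0.35, 0.66, 1.13 and -0.10 in Stat6-/- lungs, against 6.61, 7.09, 7.82 and 6.66 in Stat6+/- lungs, with no value on Stat6+/- replicate 3. At 87.3-fold (-6.45 ± 0.45, adjusted p = 9.16e-06) its groups were more than 5 log2 units apart at their nearest values. Reg3g, an antibacterial lectin, read -0.04, -1.17, -0.86, 0.02 and -0.45 in Stat6-/- lungs, against 2.94, 2.34, 1.52, 2.60 and 1.13 in Stat6+/- lungs, and its groups were apart (-2.60 ± 0.19, adjusted p = 9.16e-06). Tlr7, a receptor for viral RNA, fell by 2.53 ± 0.31. The collectin Sftpd, which binds microbes in surfactant, fell by 1.63 ± 0.25.

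Genes inside the IL-13 and Stat6 pathway itself gave 6 falls and 1 rise among 24 measured, with a median of -0.40, and 3 falls and 1 rise over 3 against 5 arrays, and 1 fall and 1 rise as deposited. Il33, an alarmin of epithelium that raises type 2 responses, read 0.18, 0.58, 0.04, 0.99 and 0.54 in Stat6-/- lungs, against 3.20, 4.91, 3.93, 3.79 and 3.36 in Stat6+/- lungs. The groups were apart, and the fall of 10.3-fold (-3.37 ± 0.30, adjusted p = 3.24e-05) was the largest among the called members of this list. The feedback inhibitors Socs3 and Cish fell by 1.90 ± 0.36 and 1.51 ± 0.26. Stat3 and Stat5a fell by 1.33 ± 0.26 and 1.63 ± 0.33, Stat5a with overlapping groups and not called without Stat6+/- replicate 3, at adjusted p = 0.0531. A second Stat3 probe was not called (adjusted p = 0.197). Gata3, the transcription factor of type 2 lymphocytes, rose by 1.32 ± 0.21 and read 0.48, -0.35, -0.17, 0.29 and -0.07 in Stat6-/- lungs, against -0.88, -1.38, -1.67, -1.27 and -1.22 in Stat6+/- lungs, with groups apart. Il13ra1, a chain of the IL-13 receptor, differed by -0.71 ± 0.37, Tslp, another epithelial alarmin, by 0.47 ± 0.15, and Il5, the eosinophil growth factor, by -1.14 ± 0.37, and none of these passed the test. Il4ra, Il2rg, Jak1 and Irs2 had no named probe here. Ptpn6, a phosphatase of blood cells, fell by 1.07 ± 0.27 and lost the call without single arrays, at adjusted p up to 0.102.

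Markers of granulocytes and mast cells were measured as other cells the lung could hold. Of 16 measured genes of eosinophils, basophils and mast cells 1 fell, Rnase2a, which the list of alternative activation also holds, and 0 rose, with a median of 0.44. Over 3 against 5 arrays 1 of 14 fell, and as deposited 1 of 16. With 16 genes, 1 fall is 6.25%, near the 3.23% of all probes, and says nothing particular of these cells. The eosinophil peroxidase Epx read -0.68, 0.86, -0.04, 0.21 and 0.41 in Stat6-/- lungs, against -1.10, -0.71, -0.73 and 0.64 in Stat6+/- lungs, with overlap, and differed by 0.70 ± 0.37 (adjusted p = 0.344), and the eosinophil markers Prg2 and Ccr3 were not called either. The mast cell proteases Cpa3, Mcpt2 and Tpsb2 differed by 1.08 ± 0.40, 0.69 ± 0.29 and 0.39 ± 0.72 and did not pass the test. Of 14 neutrophil genes 3 fell and 0 rose, with a median of -1.05. Over 3 against 5 arrays 2 of the 10 that could be tested fell, and as deposited 2 of 14. Cd177, a neutrophil surface protein that other cells also express, read 0.46, 0.09, 0.40, 0.62 and -0.40 in Stat6-/- lungs, against 4.26, 5.15, 2.93, 5.23 and 4.28 in Stat6+/- lungs (-4.14 ± 0.38, adjusted p = 7.44e-05), with groups apart. Ltf (lactoferrin), which glands make too, fell by 2.89 ± 0.39 and the chemokine receptor Cxcr2 by 1.61 ± 0.33. Cxcr2 was not called over 3 against 5 arrays or as deposited (adjusted p = 0.0659 and 0.0667). S100a8 and S100a9, the abundant calcium-binding proteins of neutrophils, differed by -1.54 ± 0.50 and -1.41 ± 0.52, and neither passed the test.

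Of 30 genes of T and NK cells 1 fell (3.33%, against 3.23% of all probes) and 2 rose (6.67%, against 1.61%), with a median of 0.18. The share of falls was near the background and that of rises was above it, on 2 genes only. Over 3 against 5 arrays 0 were called, and as deposited 0 fell and 1 rose. Il7r, the receptor for interleukin 7, fell by 3.06 ± 0.72, Cd27, a costimulatory receptor, rose by 1.61 ± 0.40, and Gzmb, a protease of cytotoxic cells, rose by 2.58 ± 0.63. All 3 lost the call without single arrays, at adjusted p up to 0.0733, 0.0828 and 0.0939. The T cell chain Cd3e was not called. Of 19 genes of B and plasma cells 4 fell and 0 rose, 2 fell over 3 against 5 arrays and 1 as deposited, without the receptor chains Cd79a and Cd79b among them. Fcer2a, the low-affinity receptor for antibodies of class E, read -1.68, -0.74, -0.23, -1.48 and -1.67 in Stat6-/- lungs, against 1.08, 1.40, 1.54, 1.37 and 1.87 in Stat6+/- lungs, and the groups were apart (-2.61 ± 0.32, adjusted p = 0.000478). Of 15 genes of class II antigen presentation 6 fell and 0 rose, with a median of -0.95, and 3 fell over 3 against 5 arrays and 1 as deposited. Cd74, the chaperone of class II molecules, fell by 1.24 ± 0.23 and H2-Eb1 by 1.29 ± 0.23, H2-Eb1 with overlapping groups. Neither was called over 3 against 5 arrays (adjusted p = 0.059 and 0.0623) or as deposited (0.176 and 0.149). The 6 falls also included Ifi30 and the proteases Ctss and Lgmn, which the protease list counts too.

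**Figure D2:**
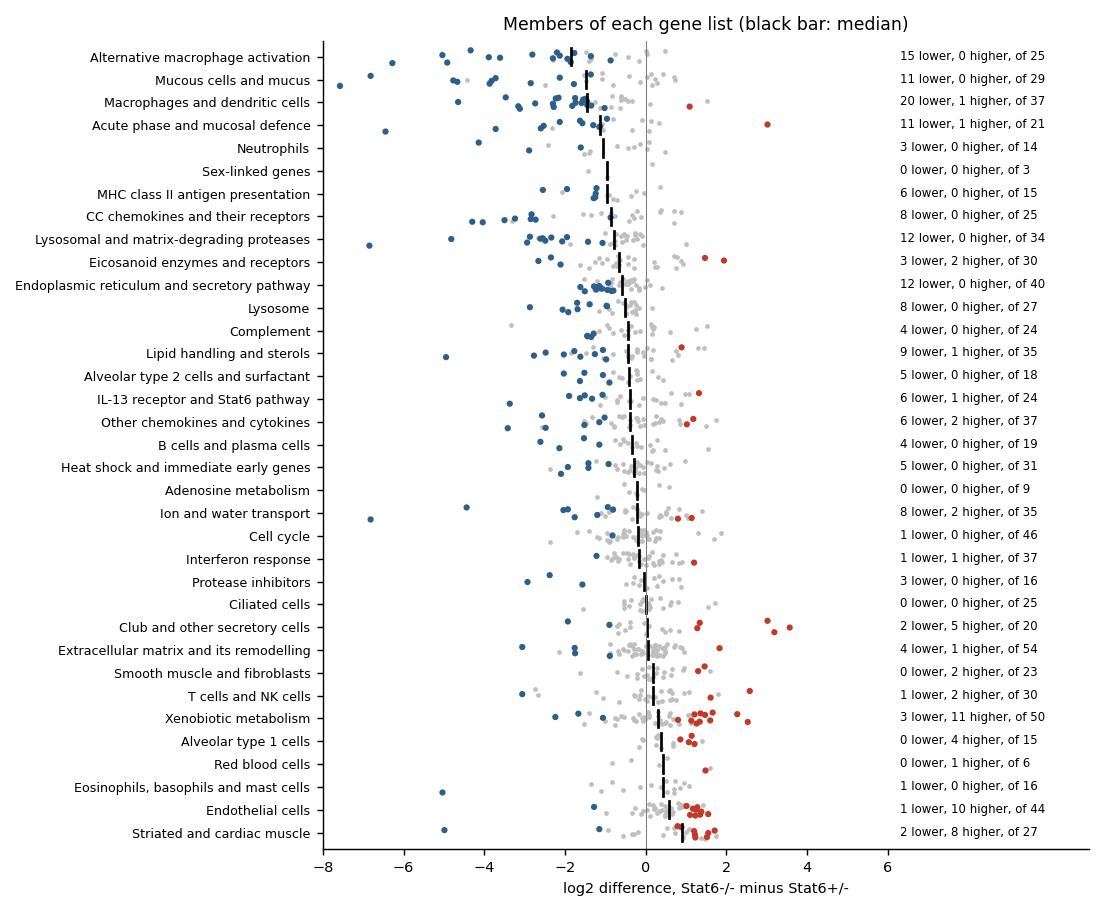
Each point is a measured gene of a list, placed by its log2 difference, Stat6-/- minus Stat6+/- (horizontal axis). Called genes are blue where lower and red where higher in Stat6-/- lungs, other genes are grey, the black bar is the median of the list, and the text at the right counts the calls. Lists are ordered by median, with alternative macrophage activation at the top at -1.86 and striated and cardiac muscle at the bottom at 0.90.

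Of 40 measured genes of the endoplasmic reticulum and secretory pathway 12 fell (30%, against 3.23% of all probes), 28 did not pass the test and 0 rose, with a median of -0.60. The calls were 3 over 3 against 5 arrays and 0 as deposited. Hspa5 (BiP, the main chaperone of that compartment) read 1.11, 0.40, 0.63, 1.33 and 0.73 in Stat6-/- lungs, against 2.16, 2.77, 2.18 and 2.11 in Stat6+/- lungs, and the groups were apart (-1.51 ± 0.19, adjusted p = 0.000686). Manf and Xbp1, a chaperone-associated secreted factor and a transcription factor of the unfolded protein response, fell by 1.26 ± 0.22 and 1.15 ± 0.22, both with overlapping groups. Sdf2l1 fell by 1.62 ± 0.36 and lost the call without single arrays, at adjusted p up to 0.0648.

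Of 35 genes of ion and water transport 8 fell and 2 rose, and 5 fell and 0 rose over 3 against 5 arrays, and 4 fell and 1 rose as deposited. Beside Slc26a4, Fxyd4, a regulator of the sodium pump, read 1.97, -0.24, -0.03, -0.53 and 0.70 in Stat6-/- lungs, against 4.27, 6.77, 3.53, 5.87 and 3.63 in Stat6+/- lungs (-4.44 ± 0.54, adjusted p = 0.000478), with groups apart. The potassium channel Kcnj15 fell by 2.04 ± 0.24, the carbonic anhydrase Car2 by 1.20 ± 0.20 and the water channel Aqp3 by 1.76 ± 0.47. The sodium channel subunits Scnn1a and Scnn1g, which draw fluid from the airway surface, rose by 0.80 ± 0.20 and 1.14 ± 0.23, both with overlapping groups. Aqp3 and Scnn1a lost the call without single arrays, at adjusted p up to 0.121 and up to 0.0913. Of 35 genes of lipid handling 9 fell and 1 rose, 6 fell and 0 rose over 3 against 5 arrays, and 3 fell and 0 rose as deposited. Ch25h, which hydroxylates cholesterol, read 0.29, 1.06, 0.17, -0.77 and -0.40 in Stat6-/- lungs, against 4.85, 4.78, 5.83 and 4.60 in Stat6+/- lungs, with no value on Stat6+/- replicate 3 (-4.95 ± 0.52, adjusted p = 0.00024). The groups were apart. The scavenger receptor Olr1 fell by 2.77 ± 0.48, the sterol reductase Dhcr7 by 2.48 ± 0.39 and the lipid droplet protein Plin2 by 1.62 ± 0.23.

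Among 30 eicosanoid genes 3 fell and 2 rose, 3 fell and 1 rose over 3 against 5 arrays, and 0 fell and 2 rose as deposited. Tbxas1 (thromboxane synthase) fell by 2.66 ± 0.46 and Pla2g7, which breaks down platelet-activating factor, by 2.11 ± 0.34. Hpgd, which inactivates prostaglandins, rose by 1.94 ± 0.36 and read 0.00, 0.21, 0.09, 0.54 and 0.52 in Stat6-/- lungs, against -1.31, -2.45, -0.60, -2.08 and -1.88 in Stat6+/- lungs, with the groups apart.

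Some club cell genes rose in Stat6-/- lungs. Of 20 genes typical of club and similar secretory cells, 5 rose and 2 fell, with a median of 0.04, over 3 against 5 arrays 5 rose and 1 fell, and as deposited 6 rose and 1 fell. Scgb3a2, a secretoglobin of club cells, read -0.12, -0.27, -0.18, -0.90 and 0.10 in Stat6-/- lungs, against -2.32, -4.97, -4.25 and -2.64 in Stat6+/- lungs, with no value on Stat6+/- replicate 4 (3.19 ± 0.45, adjusted p = 0.00204). Bpifa1, a secreted host defence protein of airway epithelium, read 0.97, -0.98, 0.64, 0.42 and 0.48 in Stat6-/- lungs, against -1.93, -3.64, -2.50, -2.27 and -3.21 in Stat6+/- lungs, and its groups were apart (3.02 ± 0.47, adjusted p = 0.0028). Pon1, the paraoxonase, read 1.12, 0.48, 0.07, 1.39 and 0.63 in Stat6-/- lungs, against -2.94, -2.52, -2.56, -2.92 and -3.25 in Stat6+/- lungs, with every Stat6-/- value above 0 and every Stat6+/- value below -2 (3.57 ± 0.22, adjusted p = 2.09e-06). Cckar, a receptor for cholecystokinin, rose by 1.28 ± 0.26 with overlapping groups. Scgb1a1, the abundant protein of the same cells, is given above and did not change by the test.

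Genes of xenobiotic metabolism, which club cells express strongly, gave 11 rises and 3 falls among 50 measured, with a median of 0.30. The calls were 6 rises and 3 falls over 3 against 5 arrays, and 13 rises and 1 fall as deposited. Cyp4a12a, a fatty acid hydroxylase, read -0.05, 0.62, 0.99, -0.98 and 0.00 in Stat6-/- lungs, against -2.65, -3.36, -0.99, -2.54 and -2.50 in Stat6+/- lungs. Stat6+/- replicate 4 came close to the lowest Stat6-/- array without crossing it, and the difference was 2.53 ± 0.43, adjusted p = 0.00464. Sult1d1, a sulphotransferase, rose by 2.27 ± 0.52, Gsta3, a glutathione transferase, by 1.60 ± 0.29 and Aldh3a1, an aldehyde dehydrogenase, by 1.66 ± 0.32. Gclc, the rate-limiting enzyme of glutathione synthesis, went the other way and read -0.24, -0.15, 0.05, 0.73 and 0.20 in Stat6-/- lungs, against 1.38, 3.12, 2.38, 2.65 and 2.24 in Stat6+/- lungs (-2.24 ± 0.33, adjusted p = 0.00205). Sult1d1 lost the call without single arrays, at adjusted p up to 0.0672.

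The remaining genes with the largest rises shared no list. Thrsp, a regulator of fat synthesis, read 0.13, 1.30, 0.07, 1.02 and -0.45 in Stat6-/- lungs, against -3.83, -4.33 and -3.10 in Stat6+/- lungs, with values on only 3 of the Stat6+/- arrays (4.07 ± 0.63, adjusted p = 0.00595). Krtap17-1, a hair keratin-associated protein, read 2.12, 0.61, 0.90, 1.60 and 3.05 in Stat6-/- lungs, against -1.36, -4.69, -1.20, -1.49 and -3.12 in Stat6+/- lungs (4.03 ± 0.62, adjusted p = 0.00264). The groups were apart for both. Ngb (neuroglobin) rose by 2.84 ± 0.55 and the fatty acid binding protein Fabp1 by 2.17 ± 0.32. Esm1, a secreted proteoglycan of endothelium, rose by 2.35 ± 0.62, Sox11, a developmental transcription factor, by 2.37 ± 0.61, and Fbxo16, Tril and Nfatc2ip by 2.71 ± 0.64, 2.69 ± 0.61 and 2.60 ± 0.64. Esm1, Sox11, Fbxo16, Tril and Nfatc2ip lost the call without single arrays, at adjusted p up to 0.118, 0.101, 0.123, 0.0609 and 0.0934. The 2 other Sox11 probes were not called (adjusted p = 0.903 and 0.363). Among the largest falls, Nadsyn1 (named for the enzyme that completes NAD synthesis), Atp2a1 (a calcium pump of fast muscle) and Vsig1 (a junction protein of stomach epithelium) belonged to no epithelial list. Nadsyn1 read 0.69, 0.00, 0.24, 0.29 and 0.86 in Stat6-/- lungs, against 5.38, 7.92, 5.58, 5.64 and 6.37 in Stat6+/- lungs and Atp2a1 read -0.39, -0.56, -0.93, -1.60 and -0.02 in Stat6-/- lungs, against 3.73, 5.12, 3.66, 4.08 and 4.87 in Stat6+/- lungs, with groups apart. Vsig1 had a Stat6-/- value of -7.06 on replicate 5, at -4.55 ± 1.17, adjusted p = 0.0466, and lost the call without single arrays, at adjusted p up to 0.0982.

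**Figure D3:**
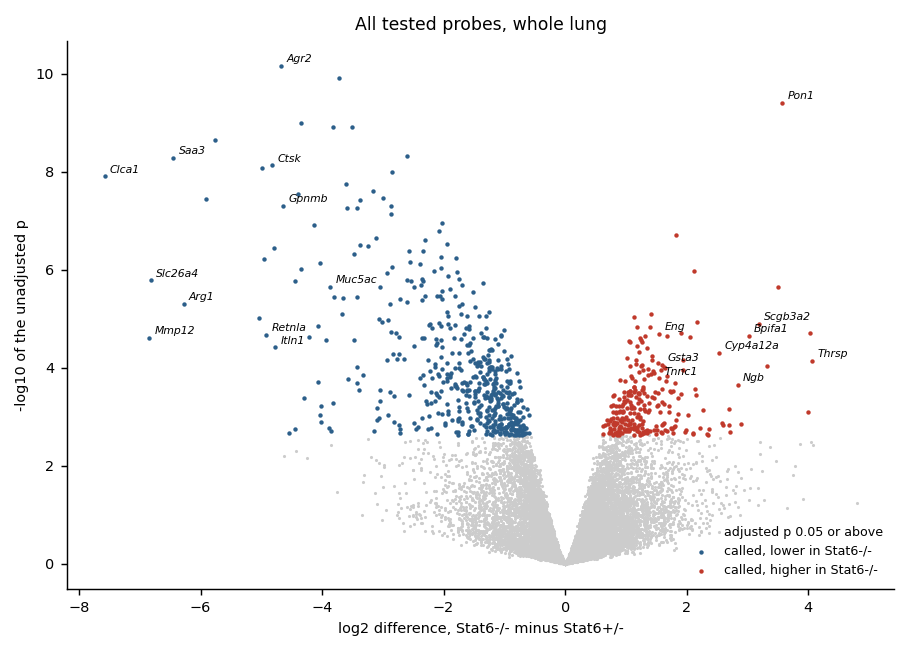
Each point is 1 of the 16096 tested probes, placed by its log2 difference, Stat6-/- minus Stat6+/- (horizontal axis), and by -log10 of the unadjusted p of the limma fit (vertical axis). Called probes are blue where lower (520) and red where higher (259) in Stat6-/- lungs, and the lower calls reach -7.58 at Clca1 while the higher calls reach 4.07 at Thrsp.

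Of 44 measured endothelial genes 10 rose (22.7%, against 1.61% of all probes), 33 did not pass the test and 1 fell, with a median of 0.58, and the median level over its members was -0.09 to 0.19 across Stat6-/- arrays, against -0.86 to -0.12 across Stat6+/- arrays. There were 4 rises and 0 falls over 3 against 5 arrays, and 8 rises and 0 falls as deposited. Eng (endoglin, a receptor for TGF-beta on endothelium) read -0.20, 0.35, 0.10, -0.02 and -0.32 in Stat6-/- lungs, against -0.96, -1.24, -2.35, -1.62 and -1.66 in Stat6+/- lungs, with groups apart (1.55 ± 0.24, adjusted p = 0.00265). Tek (the angiopoietin receptor Tie2) read 0.13, 0.12, -0.03, -0.14 and -0.09 in Stat6-/- lungs, against -0.83, -1.46, -0.89, -2.08 and -1.51 in Stat6+/- lungs (1.35 ± 0.22, adjusted p = 0.00395). Plvap, which forms the diaphragms of fenestrae, rose by 1.25 ± 0.20, Ednrb, an endothelin receptor, by 1.38 ± 0.30, and Kdr, the main receptor for vascular growth factor, by 1.23 ± 0.28. Ramp3, a partner of the adrenomedullin receptor, fell by 1.28 ± 0.28. Pecam1, an endothelial adhesion protein, differed by 0.49 ± 0.19 and was not called (adjusted p = 0.17). Ednrb, Kdr and Ramp3 lost the call without single arrays, at adjusted p up to 0.0526, 0.0664 and 0.066.

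Of 15 genes of alveolar type 1 cells 4 rose and 0 fell (median 0.38), 1 rose over 3 against 5 arrays and 3 as deposited. Cav1, the coat protein of caveolae in type 1 and endothelial cells, read 0.28, 0.45, 0.25, 0.47 and 0.34 in Stat6-/- lungs, against -0.49, -0.73, -0.48, -1.21 and -1.35 in Stat6+/- lungs, with groups apart (1.21 ± 0.20, adjusted p = 0.00451). Aqp5, the water channel of type 1 cells, differed by 0.38 ± 0.26 and was not called. Of 18 genes of type 2 cells and surfactant 5 fell and 0 rose (median -0.41), 4 fell over 3 against 5 arrays and 1 as deposited. The difference between the 2 cell types was not tested. Besides Sftpd these included Fabp5, a fatty acid binding protein that macrophages also express, which read 0.12, -0.70, -0.96, 0.03 and -0.09 in Stat6-/- lungs, against 1.73, 2.66, 1.11, 2.20 and 0.84 in Stat6+/- lungs (-2.03 ± 0.20, adjusted p = 7.24e-05).

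Of 27 measured genes of striated and cardiac muscle 8 rose and 2 fell, with a median of 0.90, and the median level over its members was -0.56 to 0.46 across Stat6-/- arrays, against -1.53 to -0.29 across Stat6+/- arrays. Only 1 rise and 1 fall were called over 3 against 5 arrays, and 6 rises and 1 fall as deposited. Tnnc1, the troponin C of heart and slow muscle, read 1.38, -0.17, 0.16, 1.61 and 0.35 in Stat6-/- lungs, against -0.33, -1.16, -0.54, -0.85 and -1.56 in Stat6+/- lungs, with groups apart and Stat6-/- replicates 1 and 5 highest. Tnnt2, Myl4 and Ckmt2, a troponin, a myosin light chain and a creatine kinase of muscle, rose by 1.22 ± 0.25, 1.52 ± 0.34 and 1.71 ± 0.38, all with overlapping groups. The heart genes Myh6 and Myl7 differed by 1.46 ± 0.43 and 1.75 ± 0.49 and did not pass the test. The 2 that fell were Mb (myoglobin), by 1.15 ± 0.30, and Atp2a1, given above. The part of the muscle genes in the rises of endothelial and alveolar type 1 genes was not tested. Myl4, Ckmt2 and Mb lost the call without single arrays, at adjusted p up to 0.0537, 0.0604 and 0.104.

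**Figure D4:**
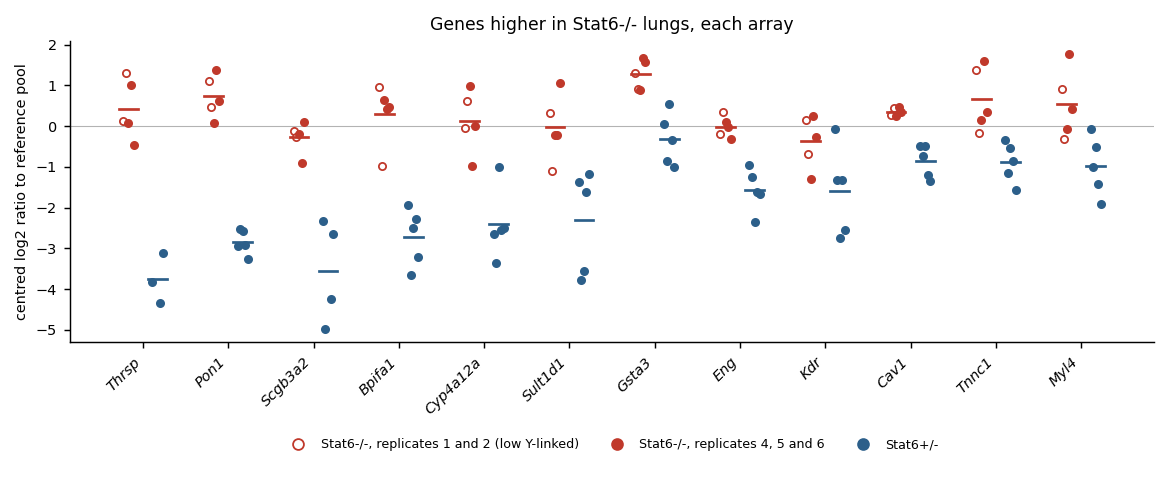
Centred log2 ratio to the reference pool (vertical axis) of 12 genes on each array, with Stat6-/- arrays in red at the left and Stat6+/- arrays in blue at the right of each gene, and a line at each group mean. Open red points are Stat6-/- replicates 1 and 2. The groups are apart for Pon1, at 0.07 to 1.39 in Stat6-/- lungs, against -3.25 to -2.52 in Stat6+/- lungs, and overlap for Kdr and Myl4.

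Of 54 measured genes of the extracellular matrix 4 fell (7.41%, against 3.23% of all probes) and 1 rose (1.85%, against 1.61%), with a median of 0.06. Over 3 against 5 arrays 2 fell and 0 rose, and as deposited 1 fell and 0 rose, so the count is near the background and the genes are given singly. Thbs1 (thrombospondin 1, which activates TGF-beta) read -1.28, -0.40, -0.49, -0.94 and -1.53 in Stat6-/- lungs, against 0.14, 2.55, 3.20, 2.03 and 2.73 in Stat6+/- lungs, with groups apart (-3.06 ± 0.44, adjusted p = 0.00166). Vcan, a matrix proteoglycan, fell by 1.76 ± 0.42, Col14a1 by 1.75 ± 0.42 and Col3a1, a fibrillar collagen, by 0.89 ± 0.22, while Lum, a small matrix proteoglycan, rose by 1.83 ± 0.44. All but Thbs1 lost the call without single arrays, at adjusted p up to 0.0822 for Vcan, 0.0817 for Col14a1, 0.0947 for Col3a1 and 0.0868 for Lum. A second Col14a1 probe was called (adjusted p = 0.007) and a second Vcan probe was not (adjusted p = 0.817).

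The same genotype comparison in tracheal perfusate, RNA flushed from the trachea of mice of the same genotypes, asked whether the differences were those of airway lining or of the rest of the lung. Perfusate RNA had gone through 1 round of amplification and was read against other reference preparations, so tissue, amplification and reference cannot be told apart. The perfusate groups held 5 arrays each and shared no array with the lung groups. Il13 was itself called in perfusate, higher in Stat6-/- by 0.99 ± 0.21 (adjusted p = 0.012), so its level was not equal there. The tissue difference of Il13 was not called (adjusted p = 0.107). The Y-linked Eif2s3y was also called in perfusate (-1.72 ± 0.46, adjusted p = 0.0494). It read -3.45 to 1.28 in Stat6-/- and 0.01 to 1.27 in Stat6+/- perfusate. Its second probe, Uty and Kdm5d were not called (adjusted p = 0.999, 0.203 and 0.551). There 529 of 16873 tested probes were called (3.14%), and the difference between the 2 tissues passed an interaction test for 662 of 15370 probes (4.31%). Clca1 fell in both, at -3.77 ± 0.31 in perfusate, and its tissue difference was -3.82 ± 0.66, adjusted p = 0.000381. Muc5ac differed by -3.38 ± 0.29 in perfusate (adjusted p = 4.91e-06), and its tissue difference of -0.50 ± 0.56, adjusted p = 0.714 did not pass the test. Agr2 and Tff2 differed by -0.08 ± 0.19 and -0.98 ± 0.28 in perfusate, neither called, and their tissue differences of -4.59 ± 0.30, adjusted p = 2.12e-11 and -2.84 ± 0.39, adjusted p = 1.54e-05 were called.

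The largest tissue differences were those of Arg1, Mmp12 and Saa3. Arg1 differed by 0.47 ± 0.22 in perfusate (tissue difference -6.74 ± 0.71, adjusted p = 3.13e-07), Mmp12 by -0.39 ± 0.24 (tissue difference -6.45 ± 1.08, adjusted p = 0.00029) and Saa3 by -0.44 ± 0.59 (tissue difference -6.01 ± 0.79, adjusted p = 1.11e-05), and none of the 3 was called in perfusate. Cxcl1 rose in perfusate, by 2.46 ± 0.53 (adjusted p = 0.0109), and fell in whole lung, with a tissue difference of -5.87 ± 0.72, adjusted p = 3.37e-06. Ch25h did likewise, at 0.72 ± 0.19 in perfusate (adjusted p = 0.0416) with a tissue difference of -5.67 ± 0.51, adjusted p = 3.97e-08. Of 24 genes of alternative activation measured in both tissues 13 had a called tissue difference toward a lower value in lung (3.06% of all probes did), and so did 17 of 36 macrophage genes and 9 of 29 mucous genes. Of the genes that rose in lung, Thrsp, Ngb and Krtap17-1 had tissue differences of 4.13 ± 0.63, adjusted p = 0.000107, 4.16 ± 1.04, adjusted p = 0.0187 and 3.17 ± 0.63, adjusted p = 0.00199. Pon1 rose in both, at 1.75 ± 0.19 in perfusate, with a called tissue difference of 1.82 ± 0.28, adjusted p = 6.78e-05. Aldh3a1 and Hpgd, at 1.29 ± 0.23 and 1.76 ± 0.26 in perfusate, had no called tissue difference (adjusted p = 0.685 and 0.883).

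**Figure D5:**
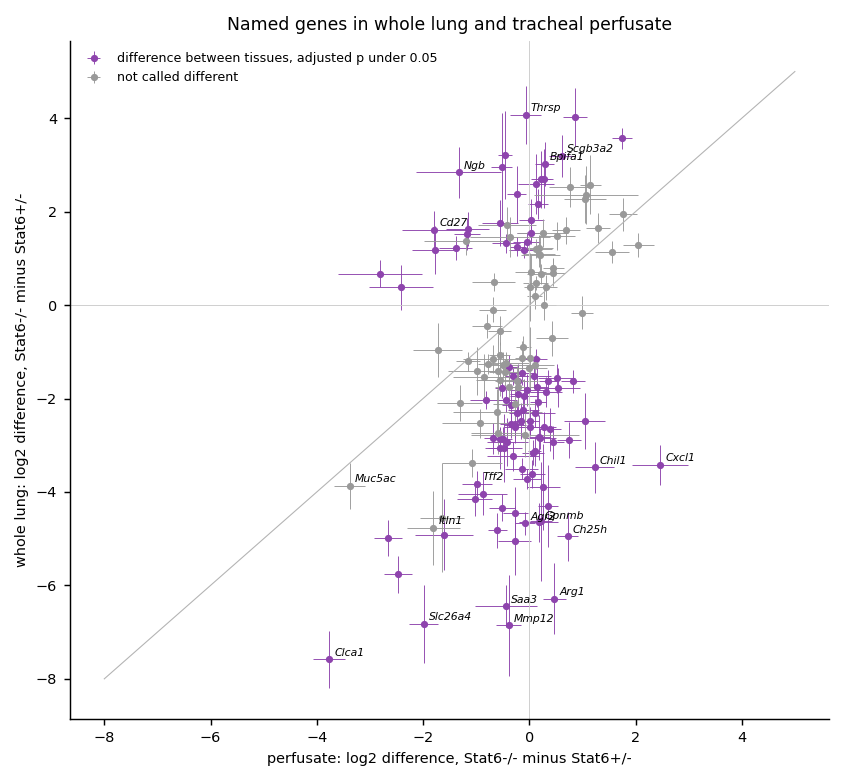
Log2 difference, Stat6-/- minus Stat6+/-, of the named genes in tracheal perfusate (horizontal axis) and in whole lung (vertical axis), with bars of 1 standard error and a line of equal differences. Purple genes had a called difference between the tissues. Muc5ac lies near the line, at -3.38 in perfusate and -3.87 in whole lung, while Arg1, Mmp12 and Saa3 lie near 0 in perfusate and below -6 in whole lung.

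The Epi+ arrays give the levels of the same genes in another group. They share the Stat6-/- background, so their levels are set side by side with no test. The genes counted here were called lower on these same Stat6-/- and Stat6+/- arrays. The ranges that the Epi+ values are set against are therefore partly fixed by that choice. Epi+ positions were not counted over all called probes, so the counts describe these genes only and differences between lists were not tested. Of the 11 mucous genes that fell, 8 had Epi+ values wholly above the Stat6-/- range and 3 overlapped that range, and 3 had Epi+ values wholly below the Stat6+/- range. Clca1 ranged over -1.29 to -0.16 in Stat6-/- lungs and 4.84 to 7.27 in Stat6-/- Epi+ lungs, against 6.03 to 8.59 in Stat6+/- lungs. Muc5ac ranged over -1.24 to 0.15 in Stat6-/- lungs and 0.68 to 2.83 in Stat6-/- Epi+ lungs, against 1.98 to 4.11 in Stat6+/- lungs. Both lay above the Stat6-/- range and overlapped the lower part of the Stat6+/- range. Pigr ranged over 0.38 to 1.02 in Stat6-/- lungs and 1.55 to 2.29 in Stat6-/- Epi+ lungs, against 4.02 to 4.83 in Stat6+/- lungs. Tff2 ranged over -1.11 to 0.45 in Stat6-/- lungs and 0.96 to 2.35 in Stat6-/- Epi+ lungs, against 2.71 to 4.70 in Stat6+/- lungs. Their Epi+ values lay between the other 2 ranges. Muc4 ranged over -0.15 to 1.21 in Stat6-/- lungs and 0.59 to 1.35 in Stat6-/- Epi+ lungs, against 1.82 to 2.75 in Stat6+/- lungs, and Retnlb over -1.38 to -0.38 in Stat6-/- lungs and -1.06 to 0.23 in Stat6-/- Epi+ lungs, against -0.43 to 3.18 in Stat6+/- lungs. The Epi+ values of both overlapped the Stat6-/- range, and those of Retnlb also the Stat6+/- range.

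Of the 20 general macrophage and dendritic cell genes that fell, all 20 had Epi+ values that overlapped the Stat6-/- range, and 14 lay wholly below the Stat6+/- range. Cd68 ranged over -0.48 to 0.31 in Stat6-/- lungs and -0.46 to 0.37 in Stat6-/- Epi+ lungs, against 2.23 to 3.91 in Stat6+/- lungs. Chil1 ranged over -2.87 to 1.02 in Stat6-/- lungs and 0.48 to 1.46 in Stat6-/- Epi+ lungs, against 2.33 to 3.58 in Stat6+/- lungs, with the Epi+ values at the upper end of a wide Stat6-/- range and past it. Of the 15 genes of alternative activation that fell, 13 had Epi+ values that overlapped the Stat6-/- range, and Retnla and Chia1 lay above it. Retnla ranged over 0.14 to 2.03 in Stat6-/- lungs and 3.56 to 5.99 in Stat6-/- Epi+ lungs, against 3.78 to 8.66 in Stat6+/- lungs. Chia1 ranged over -1.11 to 0.62 in Stat6-/- lungs and 1.69 to 2.94 in Stat6-/- Epi+ lungs, against 3.29 to 4.20 in Stat6+/- lungs, with the Epi+ values between the other 2 ranges. All 8 CC chemokines and receptors that fell had Epi+ values that overlapped the Stat6-/- range, and 5 of them lay wholly below the Stat6+/- range. Ccl11 ranged over -0.73 to 0.41 in Stat6-/- lungs and -0.34 to 0.69 in Stat6-/- Epi+ lungs, against 2.84 to 3.93 in Stat6+/- lungs. Among genes that rose, Scgb3a2 ranged over -0.90 to 0.10 in Stat6-/- lungs and -1.07 to -0.36 in Stat6-/- Epi+ lungs, against -4.97 to -2.32 in Stat6+/- lungs. Other genes that rose differed from it. Bpifa1 Epi+ values, at -2.45 to -0.37, overlapped both the Stat6-/- range (-0.98 to 0.97) and the Stat6+/- range (-3.64 to -1.93). Esm1 Epi+ values, at -0.75 to -0.28, lay below the Stat6-/- range (-0.13 to 0.61) and overlapped the Stat6+/- range (-5.18 to -0.53).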

How the data were processed

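Gene expression was measured on 2-channel spotted arrays. The authors deposited 1 log2 ratio per spot, and the steps from scan to ratio (background, filters, normalization) were not stated per the labels or the file headers. The 40 arrays of 1 platform (19152 spots) were read, of which the 15 whole lung IL-13 arrays entered the main fit and the 10 perfusate arrays of these genotypes, with the other perfusate arrays, the tissue comparison. The ovalbumin and saline whole lung arrays, on another platform, were not used. Spot intensities were not used, so no probe was filtered on signal. Precision is limited by the number of arrays.

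Each array was centred on the median of its spots, and spots of 1 accession were averaged, which left 18272 probes. Of the spots, 15418 had 1 gene symbol in the platform annotation, 7 had several and 3727 were unlisted. Where a gene had several probes, the 1 with values on the most whole lung IL-13 arrays was used, then the lowest spot number. Probes of close relatives (Clca1, Retnla and Retnlb, Chia1 and Chil1, Hspa1a, Cyp4a12a) may share signal. limma 3.58.1 in R 4.3.3 fitted the groups and the reference pool as a fixed block, leaving missing values out probe by probe, to probes with at least 3 values in each of the 3 groups. The pool carried 34.5% of the within-group sum of squares on 8.33% of the degrees of freedom. Tables and figures were made with Python 3.11.15. The fit was tested on simulated data.

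The members of the comparison, the 35 gene lists and the tests were chosen with earlier results of these data known, so counts over a list are a description and no test of the list was run. The text names the 15 called genes with the largest difference in each direction whose groups did not overlap, called members of the lists, genes that check the labels, markers of lung cells and the genes of the largest called tissue differences. Alternatives were other centring or normalization, no pool block, 1 pool at a time, only the 10 arrays, other filters, array weights, robust moderation, single spots, the replicate number as a block, and leaving out arrays.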

Additional observations from a re-analysis of the deposited data

Results flagged for a closer look

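In 18 of 316 groups of 4 or 5 values of the named genes, 1 array stood far from the others of its group, measured as its gap to the next value over the whole range. Chance flags about 1 in 20 groups. In Stat6-/- lungs, replicate 5 stood apart for Vsig1 at -7.06 (next value -1.02), Chia1 at 0.62 (next -0.78) and Ager at 0.86 (next 0.20). Replicate 2 did so for Bpifa1 at -0.98 (next 0.42) and Clec7a at -0.19 (next -0.89), and replicate 4 for Sox11 at 0.48 (next -0.81) and C1qc at -0.02 (next 0.63). In Stat6+/- lungs, replicate 1 accounted for 5, with Mmp12 at 3.99 (next 6.90), Gzmb at -4.31 (next -1.47), Ccr1 at -0.35 (next 2.38), Ednrb at -0.41 (next -1.80) and Ager at 0.15 (next -0.44). The others were Hspa5 on replicate 3 at 2.77 (next 2.18), Il5 on replicate 4 at 2.50 (next 0.39), Septin1 on replicate 4 at -4.01 (next -1.55), Esm1 on replicate 5 at -5.18 (next -1.73), Muc4 on replicate 6 at 1.82 (next 2.49) and Col14a1 on replicate 6 at 3.21 (next 0.89).

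The genotype difference itself differed between whole lung and tracheal perfusate for 662 probes by the interaction test of the limma fit. The genes with the largest shift toward a lower Stat6-/- level in lung, as lung difference minus perfusate difference, were Arg1 (-6.74), Mmp12 (-6.45), Saa3 (-6.01), Cxcl1 (-5.87), Ch25h (-5.67), Ntsr2 (-4.85), Slc26a4 (-4.83), Gpnmb (-4.83), Rnase2a (-4.77) and Chil1 (-4.70). Those with the largest shift the other way were Ngb (4.16), Thrsp (4.13), Stra8 (3.66), Pldi (3.48), Cdh20 (3.47), Cd27 (3.40), Krtap17-1 (3.17), Septin1 (2.96), Adgrl3 (2.80) and Izumo1r (2.80). A second Izumo1r probe did not show the shift, at -0.01 ± 0.37 (adjusted p = 0.997). Ntsr2, Stra8, Pldi, Cdh20, Septin1 and Izumo1r were not called in whole lung alone, with lung differences of -4.63 ± 1.27, 3.21 ± 0.94, 0.67 ± 0.29, 2.95 ± 1.17, 1.18 ± 0.51 and 0.38 ± 0.48. Perfusate RNA had been amplified and lung RNA had not.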

How the results depend on the processing

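No called probe turned its direction in the 25 alternatives that were fitted to probes, which its selection on the same arrays largely fixes, while the number of calls moved. It was 284 with the values as deposited (182 higher, 102 lower), 450 after scaling, 515 after quantile normalization, 391 without the reference block, 21 on pool 3 alone, 82 on pool 4 alone and 400 with only the 10 arrays. It was 289 without the 2 arrays of low Y-linked signal and 309 with a covariate for them. Leaving out 1 array gave 470 to 1066 calls, and without Stat6-/- replicate 1, 4 or 6 the calls were 499, 482 and 470. The labels do not say whether replicate numbers pair the arrays. After group and pool were fitted, arrays of the same number correlated at -0.025, -0.051, -0.214 and 0.155. Arrays of unlike numbers ranged over -0.200 to 0.202. With so few arrays per pool these values cannot tell whether the numbers pair arrays. With the replicate block, on the 8 arrays of shared numbers, 0 probes were called by limma and 1282 had an unadjusted p under 0.05. The same 8 arrays without that block, an alternative added after seeing the data, gave 119. Every other alternative stayed within 1.5 times of 779. The 662 tissue differences became 373 as deposited (270 higher, 103 lower, against 192 and 470) and 310 with only the 20 arrays. They became 229 without the low Y-linked lung arrays and some perfusate Stat6-/- arrays set aside for low Y-linked signal. Without 1 lung array they were 502 to 919. The 529 perfusate calls became 128 as deposited.

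Of 132 called genes named here, 101 stayed called in every fit without 1 array that tested them. The other 31 did not, at adjusted p up to 0.125, and 38 were not called without the low Y-linked arrays. Thrsp, among the 101, and Fbxo16, among the 31, could be tested in only 7 of these 10 fits. With the values as deposited 48 were not called, on pool 4 alone 81, on pool 3 alone 113, and with the replicate block 131. Signs changed only for genes that were not called. Il13 read 0.21 as deposited, 1.75 scaled, 1.15 after quantile normalization and 0.61 on pool 3. Stat6 read -0.15 scaled, -0.20 after quantile normalization, -0.02 with array weights and -0.03 to 0.29 without 1 array. Foxj1 read 0.27, 0.14, 0.10 and 0.33 in the alternatives named for Il13, and -0.22 to 0.12 without 1 array. Scgb1a1 read -1.04 on pool 3, -0.05 with array weights and -0.27 to 0.20 without 1 array, and Sftpc read 0.00 on pool 4. Izumo1r read -0.07 on pool 4 and -0.01 to 0.64 without 1 array. Eif2s3y and Uty read 0.18 and 0.13 without the low Y-linked arrays, and 0.19 and 0.13 with their covariate. The causes were not tested. No depth of signal over background was used, so probes near background were not removed.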

Other observations

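Of 24 complement genes 4 fell (16.7%, against 3.23% of all probes) and 0 rose, with a median of -0.45. Without the arrays of low Y-linked signal 4 of 22 fell, and with the values as deposited 0. They include C1qb and C1qc, which the macrophage list counts too. The lists that follow in this paragraph had calls in 0 to 2 members, where 4.84% of all probes were called. Counts of this size in short lists say nothing particular of them. Of 25 measured genes of ciliated cells 0 were called, with a median difference of 0.00, and the axonemal motor Dnah5 differed by -0.55 ± 0.31 (adjusted p = 0.36). Of 9 genes of adenosine metabolism 0 were called. Of 46 cell cycle genes 1 fell, Tyms, and of 37 interferon response genes 1 fell, Ifi204, and 1 rose, Ifit2. Of 23 genes of smooth muscle and fibroblasts 2 rose, Tcf21 and Itga8, and 0 fell.

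Of 31 heat shock and immediate early genes 5 fell and 0 rose, 1 fell without the arrays of low Y-linked signal, and 0 with the values as deposited. Hspa1a, an inducible chaperone whose probe may also bind Hspa1b, read 1.48, 0.44, -0.68, -0.31 and -0.19 in Stat6-/- lungs, against 3.12, 2.50, 2.13, 1.87 and 1.59 in Stat6+/- lungs, with groups apart (-2.10 ± 0.39, adjusted p = 0.00867). Alas2, the enzyme that starts haem synthesis in red cell precursors, was the 1 called gene among 6 of red blood cells and read 1.23, -0.56, -0.45, 0.41 and -0.32 in Stat6-/- lungs, against -0.80, -1.34, -1.54, -1.90 and -1.51 in Stat6+/- lungs (1.48 ± 0.30, adjusted p = 0.0143). Adgrl3, an adhesion receptor of neurons, read -0.21, 1.07, 0.66, -0.50 and -1.38 in Stat6-/- lungs, against -1.76, -3.02, -0.85, -2.93 and 0.04 in Stat6+/- lungs, with overlap, and rose by 1.63 ± 0.36. It lost the call without single arrays, at adjusted p up to 0.0584.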
